A study of Mus musculus with 2 samples.

Results

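The genes described here are 10 that mark lipid-associated, Trem2-positive macrophages: Trem2, Apoe, Lpl, Fabp5, Plin2, Spp1, Lgals3, Gpnmb, Cd63 and Cd9. They were taken by symbol from the 31053 genes of a mouse single-cell RNA-seq study of tumours, and each symbol matched 1 gene identifier. The study sorted CD45+ cells from tumours and made 1 droplet 5′ library labelled Ythdf2 cKO and 1 labelled WT, both from C57BL/6 mice. Ythdf2 encodes a protein that binds m6A-modified mRNA and promotes its decay, and the title of the study places its target in tumour-associated macrophages. No source used here states the Cre driver, the tumour line, the age of the mice or how many animals went into a library. With 1 library per genotype there is no replicate check, and every 95% interval below covers counting error only.

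Lipid-associated macrophages take up lipid from dying cells and lipoproteins and are known from obese fat, atherosclerotic plaque and tumours. TREM2 is a surface receptor that binds lipids and lipoproteins and signals through the adaptor TYROBP. Its cells typically express genes for lipoprotein handling (Apoe, Lpl), intracellular lipid transport and storage (Fabp5, Plin2), secreted osteopontin and galectin-3 (Spp1, Lgals3), and membrane proteins of lysosomes and the cell surface (Gpnmb, Cd63, Cd9).

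Cells were classed by marker genes that include none of the 10. The libraries held 11398 barcodes labelled cKO and 14404 labelled WT, of which 9865 and 12179 were kept. Macrophage gated cells (gated on genes that include C1qa, C1qb, C1qc, Adgre1 and Ms4a7) numbered 229 in the library labelled cKO and 1761 in the library labelled WT, with 4125155 and 30627662 UMIs. They made up 2.32% of kept barcodes labelled cKO and 14.5% of those labelled WT, and the kept barcodes that met no gate were 16.1% and 25.1%. Trem2 was itself among the 10 leading genes of this gate. Ythdf2 went against its label: macrophage gated cells held 437 CPM (UMIs of a gene scaled to the UMIs of its class) labelled cKO, against 82.6 CPM labelled WT. The deleted part of the gene is not named in the labels, so whether these 5′ reads lie in it cannot be told, and the libraries are called by their labels throughout. The libraries shared 43 barcodes, 28 of them among kept cells.

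Levels were compared over 14 classes: 13 with 50 or more cells in each library, and melanocytic cells. Mature dendritic cells (48 labelled cKO and 76 labelled WT) and type 1 conventional dendritic cells (28 and 24) were below that number. Of the 10 genes, 5 were highest in macrophage gated cells of both libraries with these small classes counted too: Trem2, Apoe, Lpl, Lgals3 and Plin2. Fabp5 led in macrophage gated cells among the 14 classes, at 1489.9 and 1875 CPM, but mature dendritic cells held 3454 CPM labelled cKO and 3721 CPM labelled WT. Trem2 was the most sharply graded of these. It stood at 386 CPM labelled cKO and 577 CPM labelled WT in macrophage gated cells, and the next class, cells between the monocyte and macrophage gates, held 69.1 and 130 CPM. Lpl was graded less, with 543 and 728 CPM in macrophage gated cells and 347 and 402 CPM in intermediate cells.

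Lgals3, the galectin-3 gene, was high across all phagocytes: 3861 and 3284 CPM in macrophage gated cells, 3548 and 3033 CPM in intermediate cells, and 3037 and 2691 CPM in monocyte gated cells. Spp1, which encodes osteopontin, was not highest in macrophages. Its level was 687 and 915 CPM in macrophage gated cells, 719 and 1156 CPM in intermediate cells, 659 and 1139 CPM in monocyte gated cells and 1053 and 1038 CPM in neutrophils. Cd9, a tetraspanin, was highest in neutrophils, at 405 CPM labelled cKO and 883 CPM labelled WT. It stood at 97.7 and 107 CPM in macrophage gated cells and at 167 and 155 CPM in NK cells.

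Gpnmb and Cd63 were led by cells that carry pigment genes. The melanocytic gate held 20 cells labelled cKO and 189 labelled WT. Gpnmb, a glycoprotein of melanosomes and lysosomes, had 2591 and 1651 CPM there, against 152 and 174 CPM in macrophage gated cells. Cd63, a tetraspanin of late endosomes and melanosomes, had 1642 and 1742 CPM in the melanocytic gate, against 361 and 563 CPM in macrophage gated cells. Mature dendritic cells also held more Cd63 than macrophage gated cells, at 548 and 847 CPM.

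**Figure D1:**
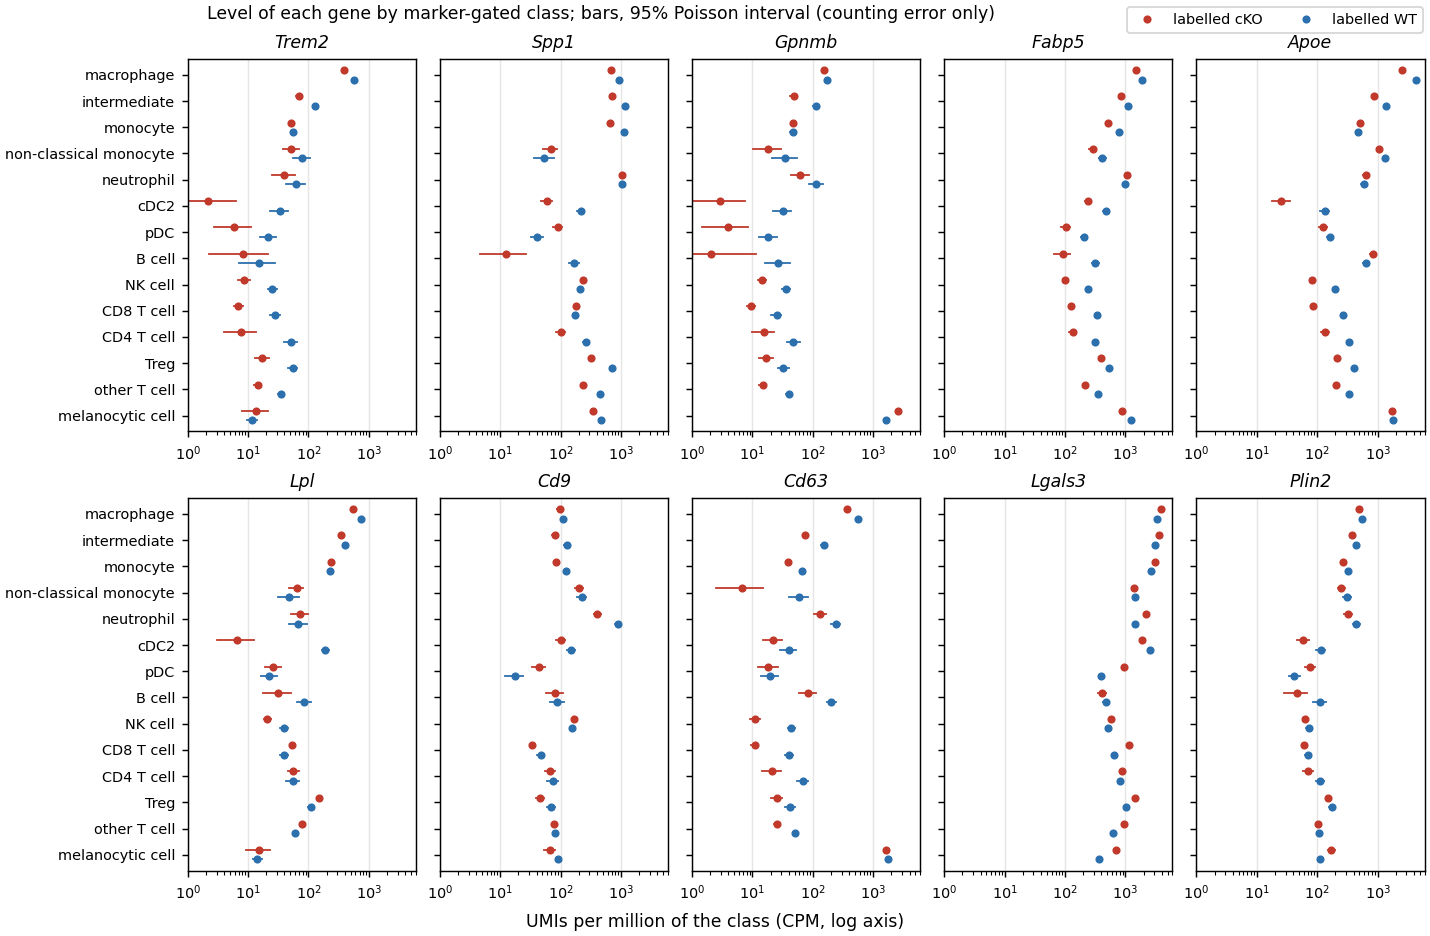
CPM (log axis) of each of the 10 genes in 14 marker-gated classes, red for the library labelled cKO and blue for the library labelled WT, bars giving the 95% Poisson interval. Of these classes Trem2 stands highest in macrophage gated cells (386 and 577 CPM), whereas Gpnmb and Cd63 stand highest in melanocytic cells and Cd9 in neutrophils.

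In GRCm38 coordinates of GENCODE vM21, Trem2 spans chromosome 17 from 48346401 to 48354147 and Spp1 chromosome 5 from 104435118 to 104441050, both on the plus strand. Gpnmb spans chromosome 6 from 49036546 to 49070929 on the plus strand, and Apoe chromosome 7 from 19696109 to 19699188 on the minus strand. Promoter sequence was found for 8 of the 10 genes from RefSeq (GRCm38.p6); Lpl and Fabp5 had no entry. The 4 shown are those of the receptor that names the group, of the gene with the lowest ratio between the libraries in macrophage gated cells, and of Gpnmb and Spp1, which are 2 of the genes whose levels were led by other cells. Each runs 5′ to 3′ along the gene's strand, from 250 bases before the transcription start site to the 20 bases that begin with it. Capitals mark a match to the E-box CACGTG, the AP-1 motif TGANTCA or the PU.1 motif GAGGAAGT, each searched on both strands.
Trem2 (chr17:48346151-48346420, plus strand): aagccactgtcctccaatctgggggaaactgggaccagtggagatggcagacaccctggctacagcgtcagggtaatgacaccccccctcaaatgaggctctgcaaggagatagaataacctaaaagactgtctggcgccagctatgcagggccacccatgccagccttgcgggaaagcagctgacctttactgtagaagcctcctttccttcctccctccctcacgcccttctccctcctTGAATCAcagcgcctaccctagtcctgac
Apoe (chr7:19699169-19699438, minus strand): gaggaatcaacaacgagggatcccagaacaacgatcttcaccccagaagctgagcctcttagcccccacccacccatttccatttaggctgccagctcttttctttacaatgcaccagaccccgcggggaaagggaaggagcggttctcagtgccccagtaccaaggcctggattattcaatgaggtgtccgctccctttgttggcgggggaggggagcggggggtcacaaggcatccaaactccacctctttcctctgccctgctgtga
Gpnmb (chr6:49036268-49036537, plus strand): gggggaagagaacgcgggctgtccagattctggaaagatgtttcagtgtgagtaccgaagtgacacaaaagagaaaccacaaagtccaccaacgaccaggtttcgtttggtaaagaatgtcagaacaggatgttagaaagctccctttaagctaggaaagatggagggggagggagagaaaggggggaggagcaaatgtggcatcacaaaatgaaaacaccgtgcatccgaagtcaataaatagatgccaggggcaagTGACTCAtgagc
Spp1 (chr5:104434861-104435130, plus strand): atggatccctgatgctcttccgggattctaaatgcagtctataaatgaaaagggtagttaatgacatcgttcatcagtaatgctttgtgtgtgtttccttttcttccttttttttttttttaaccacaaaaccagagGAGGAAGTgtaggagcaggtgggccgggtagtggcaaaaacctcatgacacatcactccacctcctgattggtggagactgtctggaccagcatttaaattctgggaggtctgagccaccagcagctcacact

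With the start site as position 0, the AP-1 match of Trem2 began at position -9 and that of Gpnmb at position 8. The PU.1 match of Spp1 began at position -113. Apoe, Cd9, Cd63 and Lgals3 had no match to these letters, and Plin2 had an E-box at position -4. Of 27025 promoters of the same length, 7.35% held the AP-1 letters, 2.73% the PU.1 letters and 6.64% the E-box, so matches to 2, 1 and 1 of 8 promoters are a description of these windows. The listed windows of Cd63 and Lgals3 lay 8356 and 6109 bases from the outermost start of the gene in GENCODE.

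In macrophage gated cells, the lipoprotein gene Apoe and the endosomal tetraspanin Cd63 were the 2 of 10 genes past 1.5-fold lower in the library labelled cKO, and none was past 1.5-fold higher. Among all 7962 genes of at least 10 CPM, 7.2% were past that size lower and 7.01% higher. The median log2 ratio, labelled cKO over labelled WT with a pseudocount of 1 CPM, was -0.37 over the 10 genes and -0.06 over all genes. All 10 genes passed the filter on low values in this class. A fold is used here as a size, not as a test.

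Apoe stood at 2531 CPM labelled cKO (interval 2483 to 2580) and 4386 CPM labelled WT (4362 to 4409), a ratio of 0.577 (0.566 to 0.589). It was past 1.5-fold lower under all 14 alternative settings. Cd63 had 361 CPM labelled cKO and 563 CPM labelled WT, a ratio of 0.642 (0.609 to 0.677), and was past 1.5-fold lower under 10 of the 14. Trem2 lay just inside that size, with a ratio of 0.669 (0.635 to 0.705). It was lower in all 14 alternatives and past 1.5-fold in 5 of them.

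Lpl, the secreted lipase that frees fatty acids from lipoproteins, had 543 CPM labelled cKO and 728 CPM labelled WT, a ratio of 0.747 (0.715 to 0.780). Fabp5, a cytosolic fatty acid carrier, had 1489.9 and 1875 CPM, a ratio of 0.794 (0.774 to 0.816). Plin2, which coats lipid droplets, had 485 and 548 CPM, a ratio of 0.885 (0.844 to 0.927). The lipid genes were thus all lower, with Apoe furthest and Plin2 least.

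Spp1 had a ratio of 0.750 (0.721 to 0.780) and Gpnmb of 0.874 (0.804 to 0.950). Cd9 had a ratio of 0.911 (0.819 to 1.01), an interval that takes in 1. Lgals3 was the single gene of the 10 that was higher labelled cKO, with a ratio of 1.18 (1.156 to 1.196). Spp1 turned to a log2 ratio of 0.34 when macrophages were taken from Leiden clusters, and Fabp5 to 0.08 and Gpnmb to 0.28 under stricter gates. Cd9 turned to 0.16 in cells with few monocyte genes, so the direction of these 4 genes moved with how the class was drawn.

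**Figure D2:**
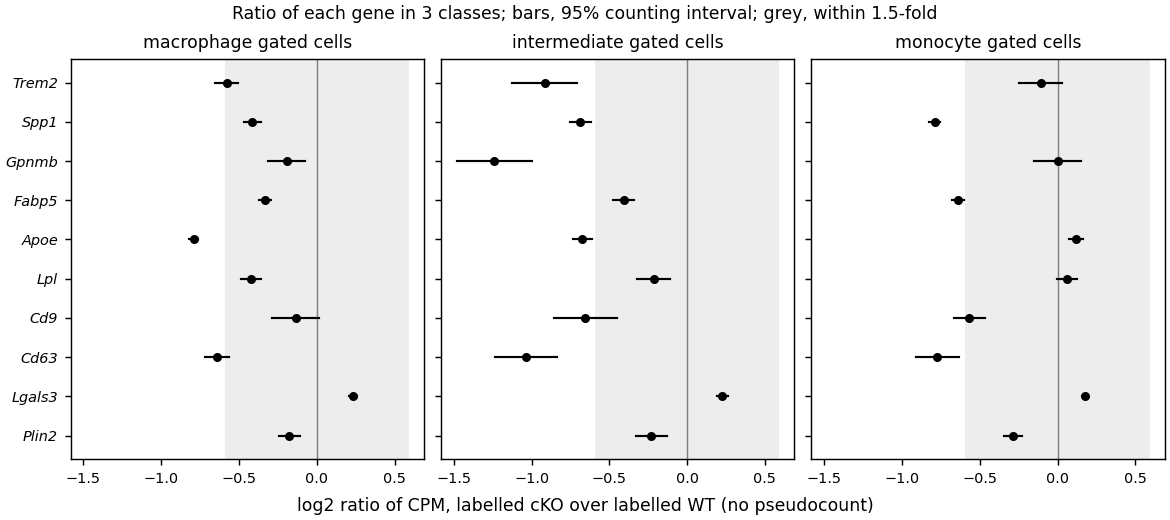
Log2 ratio of CPM, labelled cKO over labelled WT (no pseudocount), of each gene in macrophage, intermediate and monocyte gated cells, with 95% counting intervals; the grey band is within 1.5-fold. Apoe and Cd63 lie left of the band in macrophages, 6 genes in intermediate cells, and Spp1, Fabp5 and Cd63 in monocytes, while Lgals3 lies right of 0 in all 3.

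The same genes were counted per cell after thinning each macrophage gated cell to 4016 UMIs, which left out 46 cells labelled cKO and 250 labelled WT. Trem2 was found in 54.1% of cells labelled cKO and 82.7% labelled WT, against 69.4% and 88.9% before thinning. Cd63 was found in 46.4% and 77.6% (59.4% and 86.3% before thinning), Apoe in 76.5% and 93.6% (84.7% and 96.4%), Fabp5 in 57.4% and 78.3% (71.6% and 88.7%), and Lpl in 56.3% and 74.2% (68.1% and 83.6%). Spp1 was found in like shares, 47.5% and 45.9%, while its CPM was lower labelled cKO. At 2000 UMIs Trem2 was found in 36.1% and 61.9% of macrophage gated cells, against 0.494% and 2.88% of NK cells, which should lack it. The median depths before thinning were 13943 and 15046 UMIs in macrophage gated cells and 5640.5 and 3495 UMIs in NK cells.

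The median macrophage gated cell held 6 of the 10 genes labelled cKO and 7 labelled WT at that depth. Cells with 8 or more of the 10 were 17.5% labelled cKO and 36.6% labelled WT, and cells with 3 or fewer were 18.6% and 2.25%. Cells with all 10 were 7 of 183 labelled cKO (3.83%) and 57 of 1511 labelled WT (3.77%), too few labelled cKO to compare.

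**Figure D3:**
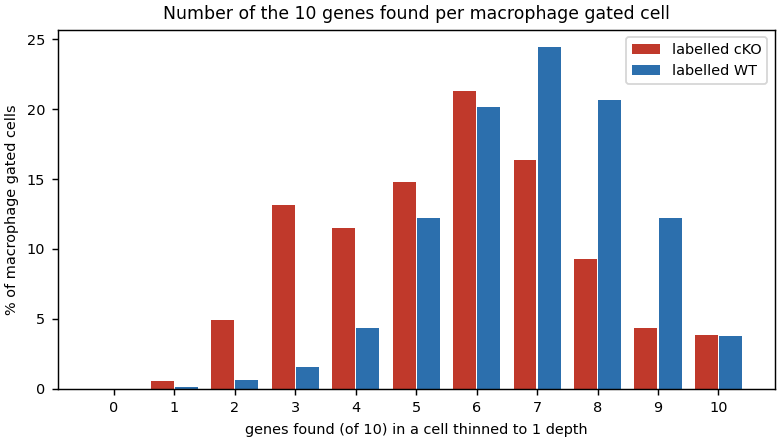
Share of macrophage gated cells (%) by how many of the 10 genes were found in the cell after thinning to 4016 UMIs, red for the library labelled cKO and blue for the library labelled WT. Cells with 3 or fewer genes make up 18.6% labelled cKO and 2.25% labelled WT, and cells with 8 or more make up 17.5% and 36.6%.

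Monocyte genes moved with these values. Macrophage gated cells held 2535 CPM of the 8 monocyte markers in the library labelled cKO and 1124 CPM in the library labelled WT. Of the 8, 6 were past 1.5-fold higher labelled cKO, against 7.01% of all genes. F13a1 was past that size lower, at 99.9 CPM labelled cKO and 208 CPM labelled WT, against 7.2% of all genes. Fn1 was near equal, at 112 and 108 CPM. Cells with at least 20 monocyte marker UMIs per 10000 made up 49.8% of the class labelled cKO and 19.9% labelled WT. Among the 115 and 1411 cells under that level, Trem2 stood at 578 CPM labelled cKO and 615 CPM labelled WT, a log2 ratio of -0.09. Cd63 was likewise closer there, at 501 and 605 CPM. Gpnmb was higher labelled cKO, at 232 CPM against 175 CPM labelled WT. Apoe kept its difference, at 3039 CPM labelled cKO and 4646 CPM labelled WT, a log2 ratio of -0.61. In the 114 and 350 cells with more monocyte RNA the ratios were wider: Trem2 had 244 CPM labelled cKO and 431 CPM labelled WT, Gpnmb 93.8 and 173 CPM, and Spp1 770 and 1439.7 CPM. This split was added after the data were seen.

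**Figure D4:**
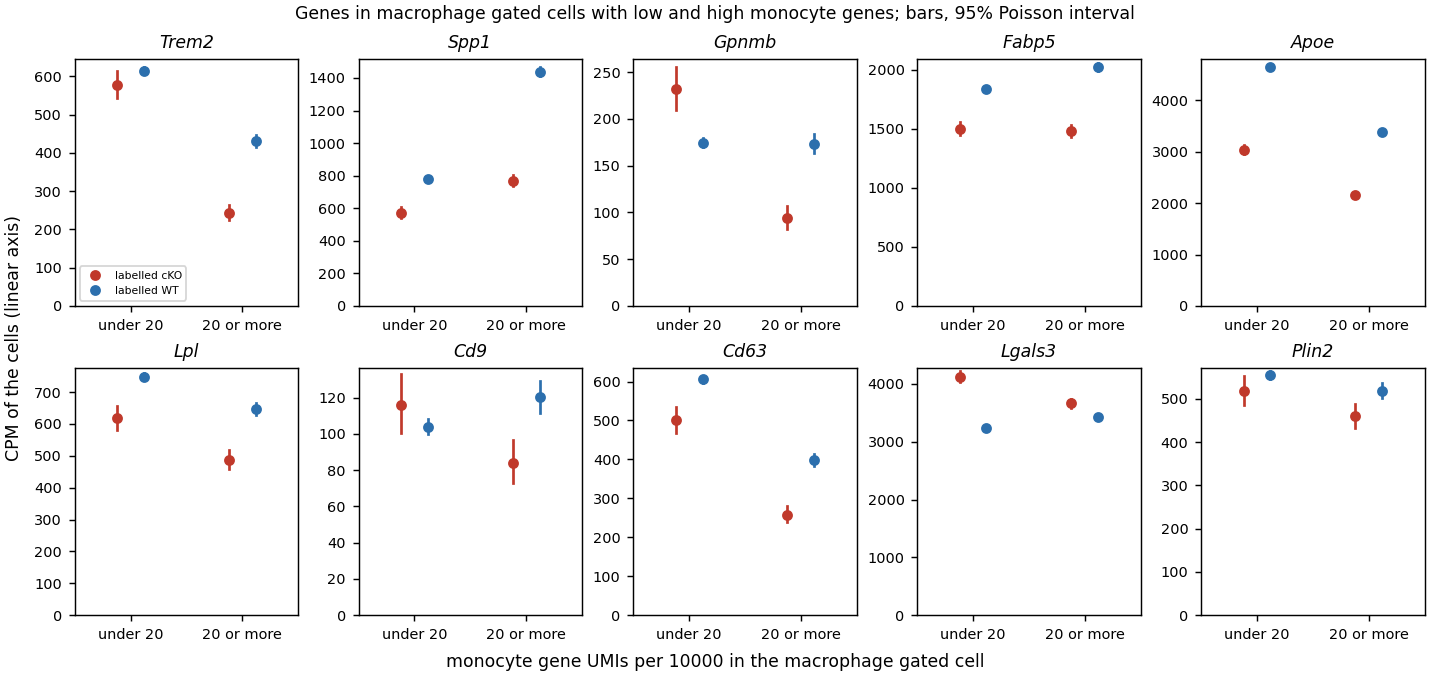
CPM (linear axis) of each gene in macrophage gated cells with under 20 and with 20 or more monocyte marker UMIs per 10000, red for the library labelled cKO and blue for the library labelled WT, bars giving the 95% Poisson interval. Trem2 is close between the libraries in cells with few monocyte genes (578 and 615 CPM) and apart in the others (244 and 431 CPM), and Apoe is apart in both.

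Cell cycle genes also differed. The 5 cycling markers summed to 351 CPM in macrophage gated cells labelled cKO and 636 CPM labelled WT. All 5 were past 1.5-fold lower labelled cKO, against 7.2% of all genes. In cells with no cycling UMI, Apoe had 2488 CPM labelled cKO and 6565 CPM labelled WT, Trem2 305 and 628 CPM, Lpl 481 and 911 CPM, and Spp1 912 and 1695 CPM. For these 4 genes the differences were larger in such cells than in the whole class, and the log2 ratio of Apoe was -1.40. Lgals3 was at the same level there, 4603 and 4601 CPM. Melanocytic marker RNA was lower labelled cKO as well, at 35.4 CPM against 63.8 CPM labelled WT. A melanocytic UMI was found in 27.5% of macrophage gated cells labelled cKO and 56.2% labelled WT. In those with none, Fabp5 had a log2 ratio of -0.92 and Trem2 of -0.95. A cell with more UMIs is more likely to hold a marker UMI, so both splits also select by depth. The part of depth was not tested. Scaled by the melanocytic marker RNA, melanocytic transcripts could supply 4.2% of the Gpnmb of macrophage gated cells labelled cKO and 3.69% labelled WT, and 1.12% and 1.21% of their Cd63. Fibroblast markers were at or near 0: 0 CPM labelled cKO and 1.96 CPM labelled WT over 5 genes.

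Intermediate gated cells, which carry both marker sets, numbered 369 labelled cKO and 335 labelled WT. There 6 of the 10 genes were past 1.5-fold lower labelled cKO and none higher, against 6.89% and 4.63% of all 7329 genes. Gpnmb had 48.1 CPM labelled cKO and 113 CPM labelled WT, a ratio of 0.424 (0.3589 to 0.5001). Cd63 had 74.6 and 153 CPM, Trem2 69.1 and 130 CPM, Spp1 719 and 1156 CPM, Apoe 858 and 1369.97 CPM, and Cd9 80.3 and 127 CPM. Fabp5, Lpl, Plin2 and Lgals3 were within 1.5-fold.

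In monocyte gated cells (1933 labelled cKO and 1424 labelled WT), 3 of the 10 genes were past 1.5-fold lower labelled cKO and none higher, against 1.97% and 3.36% of all 7223 genes. They were Spp1 with 659 CPM labelled cKO and 1139 CPM labelled WT, Fabp5 with 507 and 789 CPM, and Cd63 with 38.7 and 66.2 CPM. Melanocytic markers stood at 9.13 CPM labelled cKO and 69.4 CPM labelled WT in this class, and could supply 2.7% and 11.2% of its Cd63 and 3.55% and 15.1% of its Gpnmb. Trem2 was near its WT level, at 51.4 and 55.5 CPM, as were Apoe (512 and 472 CPM), Lpl (240 and 230 CPM) and Gpnmb (46.4 CPM in both). The ratio of Gpnmb was the most dependent on the class boundary: its log2 value was -0.63 with Leiden clusters and 0.42 with stricter gates. With the same 2 settings Trem2 had log2 values of -0.53 and 0.18, and Apoe of -0.10 and 0.51.

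Cells of the 3 classes together were then ordered by their own C1q RNA, which the 10 genes do not enter. Below 10 C1q UMIs per 10000 the libraries were close in Trem2, at 50.1 and 54.8 CPM in the lowest bin and 67.0 and 66.9 CPM in the next. Between 10 and 30 the library labelled cKO held 66.0 CPM of Trem2 and the library labelled WT 253 CPM, and between 30 and 60 they held 152 and 434 CPM. At 100 or more they held 668 and 748 CPM. These bins held different classes in the libraries: between 10 and 30, 8 of 204 cells labelled cKO and 55 of 212 labelled WT were macrophage gated, and between 30 and 60, 73 of 135 and 455 of 523. Spp1 and Lpl ran the other way between 2 and 10, where Spp1 had 990.1 CPM labelled cKO and 623 CPM labelled WT and Lpl 387 and 216 CPM. In the lowest bin Spp1 had 593 CPM labelled cKO and 1343 CPM labelled WT.

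Apoe was also close below 10 and lower labelled cKO above it, with 832 and 1968 CPM between 10 and 30. Unlike Trem2, it stayed apart at 100 or more, at 4492 and 7319.9 CPM. Its ratio there was 0.614, against 0.892 for Trem2. Cd63 was already lower labelled cKO in the lowest bin, at 36.9 and 72.7 CPM, and near equal in the next, at 58.9 and 59.7 CPM. It had 155 and 443 CPM between 30 and 60 and 614 and 733 CPM at 100 or more. Gpnmb and Fabp5 crossed over. Gpnmb had 73.4 CPM labelled cKO and 228 CPM labelled WT between 30 and 60, but 203 and 138 CPM at 100 or more. Fabp5 had 1344 and 2411 CPM between 30 and 60, and 1749 and 1294 CPM at 100 or more. Lgals3 was near equal between 10 and 30 (3609 and 3631 CPM) and higher labelled cKO at 100 or more (4354 and 2952 CPM). Ly6c2, a classical monocyte gene, moved against these genes: between 30 and 60 it stood at 1341 CPM labelled cKO and 371 CPM labelled WT, and its part in the result was not tested.

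**Figure D5:**
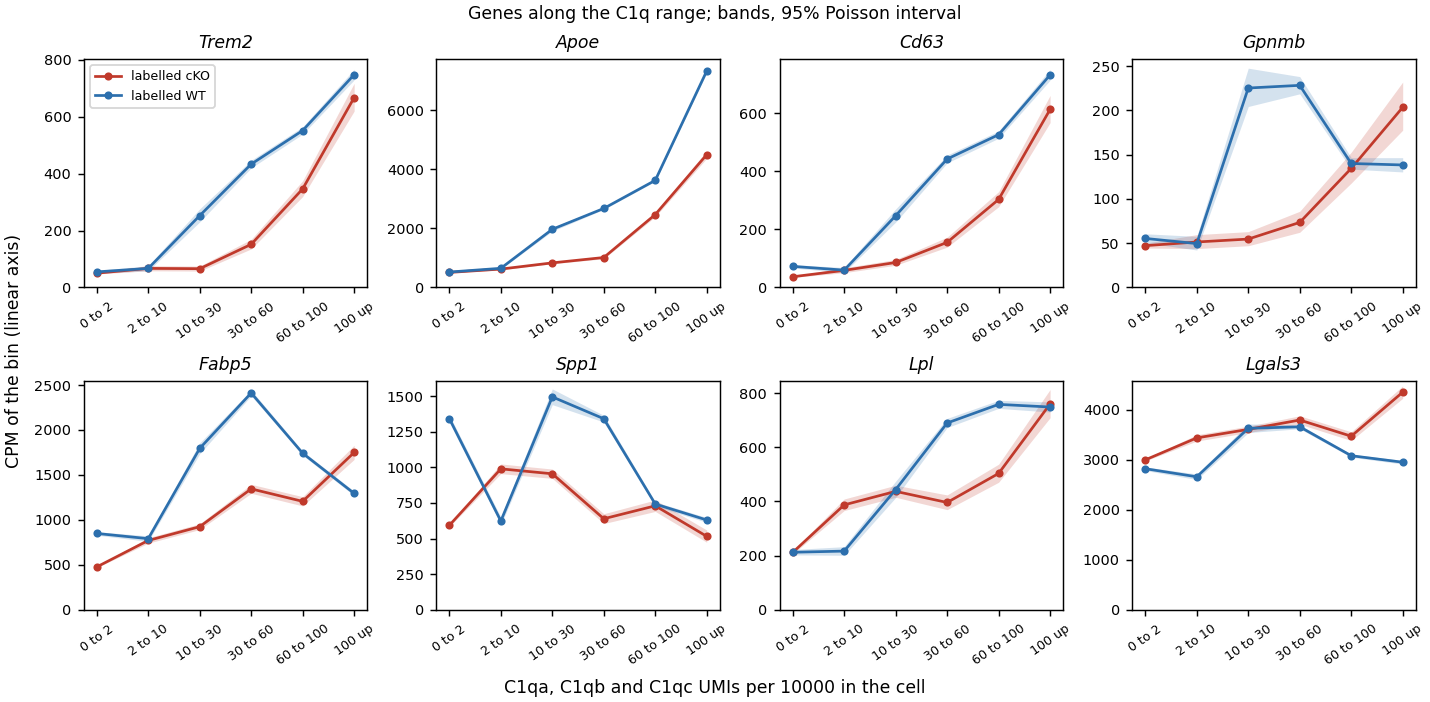
CPM (linear axes) of 8 genes in macrophage, intermediate and monocyte gated cells binned by C1q UMIs per 10000, red for the library labelled cKO and blue for the library labelled WT, bands giving the 95% Poisson interval. Trem2, Apoe and Cd63 lie lower labelled cKO from 10 upward, and Cd63 also in the lowest bin. The Gpnmb and Fabp5 lines cross at the highest C1q levels.

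Macrophage gated cells in which Trem2 was found at 4016 UMIs were compared with those in which it was not, within each library. Cells with Trem2 held 4.86 times the Gpnmb CPM of cells without it labelled cKO and 2.27 times labelled WT. For Cd63 the ratios were 3.20 and 1.54, and for Apoe 2.58 and 1.84. Spp1 was not raised with Trem2 labelled cKO (0.953) and had a ratio of 1.203 labelled WT. C1qa, a gate gene, had ratios of 2.02 and 1.30 and Ly6c2 of 0.435 and 0.464, so cells with Trem2 were also those further from the monocyte profile.

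Over the whole of each library, Trem2 made up 52.4 CPM labelled cKO and 265 CPM labelled WT, and Apoe 487 and 2267 CPM. Macrophage gated cells held 3.53% of all UMIs labelled cKO and 25.04% labelled WT, and they held 26.0% and 54.5% of the Trem2 UMIs. Monocyte gated cells held 22.3% of the Trem2 UMIs labelled cKO. Melanocytic cells held 42.2% of all Gpnmb UMIs labelled cKO and 53.6% labelled WT. Barcodes in no gate held 35.2% and 39.1% of the Trem2 UMIs.

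Outside phagocytes, Apoe was highest in melanocytic cells, at 1749 CPM labelled cKO and 1775 CPM labelled WT, and was also found in B cells. In B cells it stood at 836 CPM labelled cKO and 636 CPM labelled WT in 109 and 201 cells. At 2000 UMIs it was found in 61.7% and 59.5% of B cells, against 7.2% and 29.2% of NK cells. The B cell gate also held stromal RNA: 5 fibroblast markers summed to 639 CPM labelled cKO and 1477 CPM labelled WT, and Ptprc was found in 93.6% and 73.6% of its cells. In the 108 and 192 cells with no fibroblast UMI, a setting added after the data were seen, Apoe stood at 889.97 CPM labelled cKO and 719.7 CPM labelled WT. In the 101 and 145 of these with a Ptprc UMI it stood at 889.0 and 636.2 CPM. Cd9 was likewise found in NK cells beyond background, in 31.8% labelled cKO and 27.3% labelled WT at 2000 UMIs, against 4.71% and 6.34% of CD8 T cells. Neutrophils (63 labelled cKO and 170 labelled WT) held Fabp5 at 1073 and 986 CPM beside their Spp1, and Cd9 there had a ratio of 0.459 (0.390 to 0.540).

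In most lymphocyte classes more of the 10 genes were past 1.5-fold lower labelled cKO than higher, and macrophage and melanocytic RNA were lower as well. In NK cells 6 of 10 were past 1.5-fold lower, against 2.88% of all genes, and none was past that size higher, against 2.23%. In CD8 T cells 5 were lower and 1 higher, against 3.73% and 7.09%. In B cells 7 were lower and none higher, against 23.6% and 11.2%, and in CD4 T cells 7 and none, against 9.29% and 6.05%. In regulatory T cells 6 were lower and none higher, against 4.17% and 5.46%, and in other T cells 6 and 1, against 2.33% and 5.54%. Plasmacytoid dendritic cells differed, with 3 lower and 4 higher, against 6.85% and 9.64%. Their 4 higher genes were Lgals3 (965 and 395 CPM), Cd9 (43.9 and 17.4 CPM), Spp1 (90.3 and 40.7 CPM) and Plin2 (76.6 and 42.1 CPM). Some genes counted as lower passed the filter of 10 CPM only through the library labelled WT. These were Trem2 in NK, CD8 T, CD4 T, B and plasmacytoid dendritic cells, and Gpnmb in CD8 T, B and plasmacytoid dendritic cells. For them the filter favours a lower call, so these counts are a description only. C1qa stood at 14.98 CPM labelled cKO and 72.9 CPM labelled WT in NK cells, where Trem2 stood at 8.64 and 25.3 CPM. Melanocytic markers stood at 10.4 and 96.6 CPM in NK cells and at 6.92 and 78.6 CPM in CD8 T cells. Scaled by them, melanocytic transcripts could supply 12.9% of NK cell Gpnmb labelled cKO and 26.8% labelled WT, and 10.8% and 23.5% of NK cell Cd63. The part of free macrophage RNA in these lymphocyte values was not tested. The higher gene in CD8 T cells was Lgals3, at 1148 CPM labelled cKO and 637 CPM labelled WT, found in 71.9% and 39.7% of cells at 2000 UMIs. Monocyte markers were higher labelled cKO in CD8 T cells too, summing to 3671 CPM against 2141 CPM labelled WT. Of 8, 6 were past 1.5-fold higher and 0 lower, against 7.09% and 3.73% of all genes. The part of monocyte RNA in this Lgals3 value was not tested.

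The genes around TREM2 in its pathway were listed with earlier results of these data known. Among all 7962 genes of macrophage gated cells, 7.2% were past 1.5-fold lower and 7.01% higher. A count of 1 or 2 in a short list is therefore a description only. None of 8 Trem2 signalling and shedding genes was past 1.5-fold in macrophage gated cells; Tyrobp, the adaptor, had 1681 CPM labelled cKO and 1574 CPM labelled WT. None of 6 measured osteopontin receptors and none of 9 measured hypoxia genes was past it either. Of 8 measured lipid uptake and efflux receptors, 2 were past it lower and 1 higher. The lower ones were Cd36 (122 and 214 CPM), a scavenger receptor, and Abca1 (70.3 and 118 CPM), which exports cholesterol to apolipoproteins. The 1 higher receptor is not named here. The 10 listed receptors summed to 1285 CPM labelled cKO and 1489 CPM labelled WT. Their median log2 ratio was -0.11 over the 8 measured. Of 11 cholesterol and triglyceride genes, Fabp4 (60.6 and 123 CPM) and the lipase Mgll (6.55 and 11.3 CPM) were lower and none higher. Of 15 lysosomal genes only the protease Ctsd (1669 and 2533 CPM) was past the size, and it was lower.

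Of 8 measured surface and secreted genes, Igf1 (43.6 and 128 CPM) was lower, whereas the integrin Itgax (82.7 and 32.2 CPM) and the receptor kinase Axl (135 and 68.7 CPM) were higher. Of 12 transcription factors, Bhlhe41 (16.7 and 45.1 CPM) was lower, and Bhlhe40 (224 and 117 CPM) and Nr1h3, which encodes LXR alpha (43.4 and 28.0 CPM), were higher. Among 16 measured relatives of the 10 genes, Cd81 (80.5 and 187 CPM), Fabp4 and the pigment gene Pmel were lower. Trem3 (19.6 and 6.76 CPM), Treml4 and Trem1 were higher, as was Treml2. Pmel (6.79 and 19.9 CPM) and Mgll passed the filter of 10 CPM only through the library labelled WT. Trem3 and Treml4 (10.9 and 4.47 CPM) passed it only through the library labelled cKO. Pmel and Treml4 are also marker genes used in the gates. The counts of these lists stand beside 7.2% of all genes lower and 7.01% higher, and were not tested. The medians of these lists lay between -0.21 and 0.34 on the log2 scale, against -0.06 over all genes.

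Over 20 pairs of class and library (10 classes with 100 or more cells on both sides), the log2 level of Trem2 followed that of Fabp5 (r = 0.945), Gpnmb (0.915), Plin2 (0.862), Apoe (0.853), Lpl (0.838) and Cd63 (0.804). It followed Spp1 (0.710) and Lgals3 (0.709) less and Cd9 least (0.352). Outside the 10, the closest of 4951 genes were Ms4a7 (0.951), Stab1 (0.949), Mrc1 (0.944), Fam213b (0.936) and Cd36 (0.933). The mean of the 10 genes was followed most closely by Cd36 (0.969), Adgre1 (0.964), Fam213b (0.952), Hmox1 (0.952) and Dab2 (0.949). Ms4a7 and Adgre1 are gate genes, and the pairs share libraries and free RNA, so these values describe the pattern only.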

How the data were processed

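The deposited counts are UMIs per gene and cell barcode from 1 library labelled Ythdf2 cKO and 1 labelled WT. The submitters' processing notes name Cell Ranger 5.0.1, Seurat 4.0.4 and mm10; the matrix header names cellranger 5.0.0. No source used here states the counting options, and reads of Cd9, Cd63 and Fabp5 may be shared with processed pseudogenes.

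Barcodes with at least 200 genes and at most 10% mitochondrial UMIs were kept. The libraries held 121321782 UMIs labelled cKO and 128952491 labelled WT. Classes were gated on marker UMIs per 10000 (40 or more for macrophages and monocytes), with limits on markers of other classes. Gate levels were set after the marker distributions were seen; 121 of 367 macrophage-level barcodes labelled cKO and 777 of 2653 labelled WT were left out for T cell genes. UMIs were summed per class and expressed as CPM of the class, with exact 95% Poisson intervals; ratios have exact conditional binomial intervals. Log2 ratios used a pseudocount of 1 CPM, and the background was every gene reaching 10 CPM in 1 or both libraries. Sequences and motif matches came from RefSeq promoters. Ratio and thinning functions were tested on simulated data. Tools were python 3.11.15, scipy 1.17.1 and scanpy 1.11.5. Doublets were limited by gates that exclude each other, with Scrublet as an alternative. Shares of cells were read against NK cells in place of the B cells first planned, because B cells held Apoe.

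All 10 genes are described; of other genes, those named are the 5 most like Trem2 and the 5 most like the mean of the 10, up to 3 per direction of each pathway list, marker genes and Ythdf2. The 10 genes and the lists were chosen with earlier results of these data known. Results for some items are not reported here.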

Additional observations from a re-analysis of the deposited data

How the results depend on the processing

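No paired analysis was possible because each genotype has 1 library and the labels give no replicate numbers. The count of the 10 genes past 1.5-fold lower labelled cKO was 2 in macrophage gated cells. It was 1 with median-of-ratios size factors, stricter gates, Leiden clusters or monocyte genes under 20 per 10000 (added after seeing the data), 4 with equal weight per cell or thinned cells, 5 without cycling UMIs, 6 without melanocytic UMIs and 0 at 2-fold. In monocyte gated cells it was 3, and 0 with stricter gates or at 2-fold. No setting put any of the 10 past 1.5-fold higher in either class. The counts of 4 stand beside all-gene counts of lower genes that rose too, given below. For the settings without cycling or melanocytic UMIs no all-gene count is given, so the 5 and 6 have no background beside them. The share of monocyte gated cells with a UMI, labelled cKO minus labelled WT, turned positive without thinning for Spp1 (0.124 percentage points), Cd9 (3.23) and Plin2 (7.23); the median depths there were 12721 UMIs labelled cKO and 7226 labelled WT. Over all genes in macrophages, 558 were higher, against 879 thinned, 1014 without the filter and 214 at 2-fold; 573 were lower, against 236 with a pseudocount of 10 CPM, 961 with equal weight, 1185 thinned, 225 with Leiden clusters, 1314 without the filter and 131 at 2-fold. In monocytes 243 were higher, against 159 with that pseudocount, 427 without the filter and 77 at 2-fold; 142 were lower, against 81 with median-of-ratios size factors, 54 with that pseudocount, 509 without the filter and 26 at 2-fold. The cause of these moves was not tested. With 229 macrophage gated cells labelled cKO, genes near 100 CPM such as Cd9 have the widest intervals.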
